A study of Homo sapiens with 18 samples.

Results

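The 8 regulators of the sterol regulatory element-binding proteins (SREBPs) measured here were SREBF1, SREBF2, SCAP, INSIG1, INSIG2, MBTPS1, MBTPS2 and STARD4. They were taken from the 20802 genes of the panel by matching each gene identifier to these symbols, and all 8 were found and passed the count filter, so that all 8 were among the 10246 genes tested. RKO, an established human colorectal carcinoma cell line, was transfected with 30 nM siRNA and harvested 72 h later, and RNA was read with an amplicon panel in which each gene is represented by its own amplicon. The 6 groups were the nontargeting siCtrl#1 and siCtrl#2, the Tsg101-directed siTsg101#1 and siTsg101#2, and the Vps28-directed siVps28#1 and siVps28#2, with 3 replicates each, 1 per labelled batch. Tsg101 and Vps28 are subunits of ESCRT-I, the complex that sorts ubiquitinated membrane cargo into the lumen of endosomes, and the comparisons ask how its loss altered transcripts. All groups came from 1 cell line and received lipid-carried siRNA, so no untransfected cells stand beside them.

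SREBPs are transcription factors made as precursors in the membrane of the endoplasmic reticulum (ER). SCAP escorts them in COPII vesicles to the Golgi, where the proteases encoded by MBTPS1 (site-1 protease) and MBTPS2 (site-2 protease) release the active fragment. When ER cholesterol is high, the INSIG proteins hold SCAP and its cargo in the ER. SREBF2 encodes SREBP-2, mainly tied to cholesterol genes, and SREBF1 encodes SREBP-1, mainly tied to fatty acid genes. STARD4 is a soluble protein that moves sterol between membranes, including towards the ER. SREBF2, INSIG1 and STARD4 are themselves textbook SREBP target genes, whereas INSIG2 is best known for regulation in liver that does not depend on SREBPs.

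Libraries held 2561790 to 7466916 reads on genes, the lowest being siTsg101#1 replicate 1. TSG101 transcript was left at 3.48% and 2.89% of siCtrl#1 with siTsg101#1 and siTsg101#2, and VPS28 at 5.63% and 5.95% with siVps28#1 and siVps28#2. Of 10 epithelial and colorectal markers, KRT8, KRT18, EPCAM and CDX2 were read in every library, CDH1 and CDH17 were at 0 counts throughout, and KRT19, VIL1, CDX1 and LGALS4 did not exceed 2 counts. The summed level of these markers was 140 to 146 normalized CPM (counts scaled to library size) with siCtrl#1 and 127 to 167 with siCtrl#2. It was 111 to 119 with siTsg101#1, 94.1 to 115 with siTsg101#2 and 96.4 to 124 with siVps28#1, below every nontargeting library, and 111 to 145 with siVps28#2, and its part in the results was not tested. Of 11 leukocyte, endothelial and fibroblast markers, only COL1A1 exceeded 2 counts in any library, with up to 11. In bulk RNA, fewer cells of a kind and less RNA per cell cannot be told apart.

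Promoter sequence is shown for the regulators that stood higher in all 12 on-target libraries and for SREBF2, because SREBF2 was the only one of the 8 with a sterol regulatory element core in the bases before its start. The core was searched as TCACNCCAC and the NF-Y box as CCAAT, both on either strand and with no shared letters, in the 250 bases upstream of the RefSeq start (GRCh38.p14, 5′ to 3′ on the gene's strand); capitals mark matches. Of 35116 upstream windows of this length, 0.883% held the core, 32.0% held an NF-Y box and 0.231% held both.
SREBF2: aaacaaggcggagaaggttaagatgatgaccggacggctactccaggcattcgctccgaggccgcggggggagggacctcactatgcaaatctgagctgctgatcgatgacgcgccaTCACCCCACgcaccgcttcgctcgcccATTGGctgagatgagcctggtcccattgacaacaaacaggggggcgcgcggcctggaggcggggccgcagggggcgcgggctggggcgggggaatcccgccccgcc
INSIG1: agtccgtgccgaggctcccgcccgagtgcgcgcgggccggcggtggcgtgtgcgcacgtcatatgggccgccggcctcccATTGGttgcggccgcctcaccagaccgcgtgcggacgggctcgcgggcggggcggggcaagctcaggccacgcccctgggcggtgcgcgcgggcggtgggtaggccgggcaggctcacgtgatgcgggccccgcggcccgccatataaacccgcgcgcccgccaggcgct
STARD4: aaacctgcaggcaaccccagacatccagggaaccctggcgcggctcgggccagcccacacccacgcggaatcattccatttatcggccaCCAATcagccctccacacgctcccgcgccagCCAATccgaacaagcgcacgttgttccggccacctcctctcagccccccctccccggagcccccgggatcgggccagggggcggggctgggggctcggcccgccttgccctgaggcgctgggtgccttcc
INSIG2: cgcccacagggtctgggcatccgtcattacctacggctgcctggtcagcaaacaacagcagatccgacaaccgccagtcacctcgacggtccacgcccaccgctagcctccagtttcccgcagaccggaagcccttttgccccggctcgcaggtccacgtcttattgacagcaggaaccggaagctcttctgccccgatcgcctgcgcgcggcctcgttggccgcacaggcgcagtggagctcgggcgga
The windows are chr22:41832855-41833104 on the plus strand for SREBF2, chr7:155297628-155297877 on the plus strand for INSIG1, chr5:111512536-111512785 on the minus strand for STARD4 and chr2:118088221-118088470 on the plus strand for INSIG2. The SREBF2 core lay 133 to 125 bases before the start on the plus strand and its NF-Y box 106 to 102 bases before it on the minus strand. INSIG1 had 1 NF-Y box, 170 to 166 bases before the start, and STARD4 had 2, at 161 to 157 and 130 to 126 bases. Neither of the 2 overlapping INSIG2 windows, nor those of SREBF1, SCAP, MBTPS1 and MBTPS2, held a match to these letters, which says nothing of sites elsewhere or of other spellings.

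With the 4 on-target siRNAs averaged, 4 of the 8 regulators rose and none fell against siCtrl#1: INSIG2 2.57-fold, INSIG1 2.21-fold, STARD4 2.10-fold and MBTPS1 1.72-fold. Calls required a change of at least 1.5-fold and, in edgeR's quasi-likelihood test across all 10246 genes, an adjusted p under 0.05. By this rule 8.4% of all genes tested were called higher. No regulator was lower at an unadjusted p under 0.05 (0 of 8), and DESeq2 also called 4 higher and 0 lower. The median log2 fold change of the 8 was 0.65, against -0.01 for all genes tested. Because the 4 on-target siRNAs share the same siCtrl#1 libraries, their values are given side by side and are not independent of one another. Of the 4, MBTPS1 was as high with siCtrl#2 as with the on-target siRNAs, and is described with that group below.

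**Figure D1:**
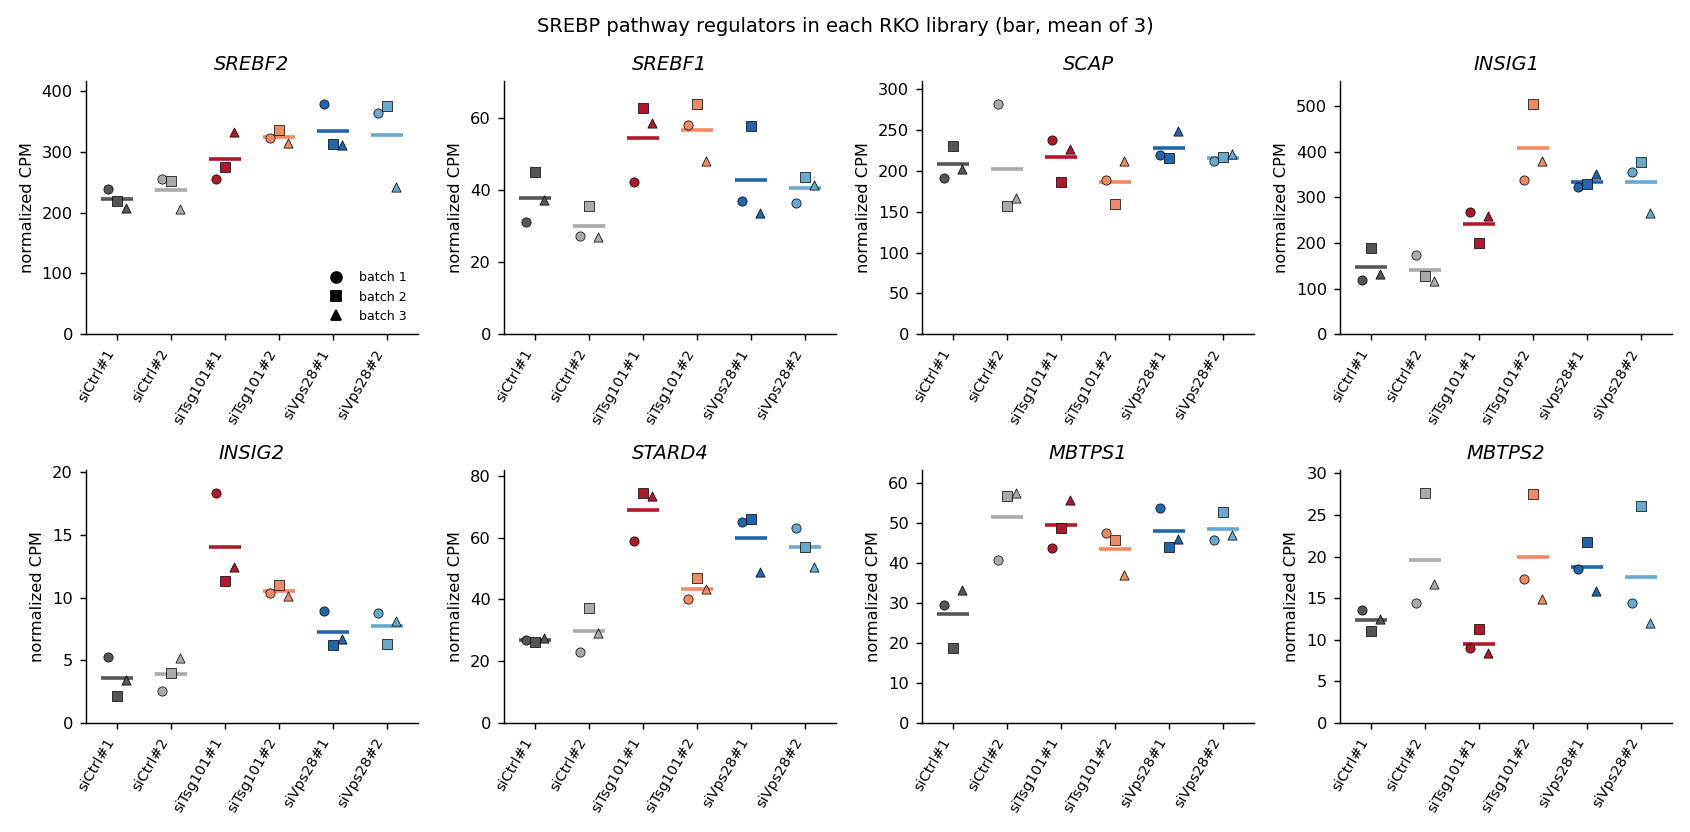
Normalized CPM (vertical axes, linear from 0, a separate scale for each gene) of the 8 regulators in each of the 18 libraries by siRNA group; symbols mark batches and bars the mean of 3. INSIG1, INSIG2 and STARD4 stood above all 6 nontargeting libraries in 12 of 12 on-target libraries, SREBF2 in 11 of 12, and siCtrl#1 alone stood low for MBTPS1. How many of all genes tested separated in this way was not counted.

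INSIG1, the ER retention protein whose own transcript follows SREBP activity, read 119, 189 and 133 normalized CPM in siCtrl#1 replicates 1 to 3 and 174, 129 and 118 with siCtrl#2. It read 267, 201 and 259 with siTsg101#1 and 339, 505 and 380 with siTsg101#2. It read 323, 328 and 351 with siVps28#1 and 356, 377 and 266 with siVps28#2. Every on-target library therefore lay above every nontargeting one, a separation that was not counted over all genes tested. The log2 fold changes against siCtrl#1 were 0.72 (SE 0.20, adjusted p = 0.00975), 1.48 (SE 0.20, adjusted p = 1.42e-05), 1.19 (SE 0.20, adjusted p = 0.00041) and 1.18 (SE 0.20, adjusted p = 0.000281) in the same order, all called. Without siCtrl#1 replicate 1, which was low, the siTsg101#1 value was 0.59 with an adjusted p of 0.0621. The other 3 calls held with each of the 18 libraries left out. Libraries outside the groups compared bear on a call mainly through the shared estimate of the spread.

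INSIG2, the second ER retention protein, was read at few counts, 7 to 27 per nontargeting library and 26 to 89 per on-target library. Its level was 5.23, 2.15 and 3.42 normalized CPM with siCtrl#1 and 2.54, 3.95 and 5.19 with siCtrl#2. It was 18.4, 11.3 and 12.4 with siTsg101#1 and 10.3, 11.0 and 10.1 with siTsg101#2. It was 8.95, 6.21 and 6.69 with siVps28#1 and 8.76, 6.29 and 8.17 with siVps28#2. The 18 libraries thus fell in 3 bands that did not overlap, nontargeting below Vps28 depletion below Tsg101 depletion. The upper gap was narrow, from 8.95 to 10.1, and how many of all genes tested formed such bands was not counted. Both siTsg101 values against siCtrl#1 were called, at 1.89 (SE 0.30, adjusted p = 7.34e-05) and 1.51 (SE 0.30, adjusted p = 0.00093), as was siVps28#2 at 1.07 (SE 0.31, adjusted p = 0.0195). The siVps28#1 value of 0.97 (SE 0.32, adjusted p = 0.0586) missed the threshold, and with the batch as a replicate block it was 0.99 with an adjusted p of 0.0347. It also passed without siCtrl#1 replicate 1 (adjusted p = 0.0369) or siCtrl#2 replicate 1 (adjusted p = 0.0426), and against the mean of both nontargeting siRNAs (adjusted p = 0.0366). With the other 23 of 27 alternatives it stayed uncalled, and against siCtrl#2 alone it was 0.86 (adjusted p = 0.142). The siVps28#2 call was lost without siCtrl#1 replicate 2 or 3 or without siVps28#2 replicate 1 or 3, at adjusted p 0.0941, 0.0765, 0.0715 and 0.0515, while both siTsg101 calls held with each of the 18 libraries left out.

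STARD4, the sterol transfer protein, was even across siCtrl#1, at 27.0, 26.2 and 27.4 normalized CPM, and read 23.1, 37.3 and 29.2 with siCtrl#2. It read 58.8, 74.6 and 73.5 with siTsg101#1 and 40.0, 46.8 and 43.4 with siTsg101#2. It read 65.3, 65.9 and 48.9 with siVps28#1 and 63.2, 57.1 and 50.4 with siVps28#2. No on-target library reached down to a nontargeting one, which was likewise not counted over all genes tested. All 4 on-target siRNAs were called, at log2 fold changes of 1.36 (SE 0.18, adjusted p = 7.47e-06), 0.69 (SE 0.18, adjusted p = 0.0085), 1.16 (SE 0.18, adjusted p = 0.000188) and 1.08 (SE 0.18, adjusted p = 0.000222), and these calls held with each of the 18 libraries left out. Against siCtrl#2 the siTsg101#2 value was 0.54 (SE 0.18, adjusted p = 0.0405), under 1.5-fold.

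**Figure D2:**
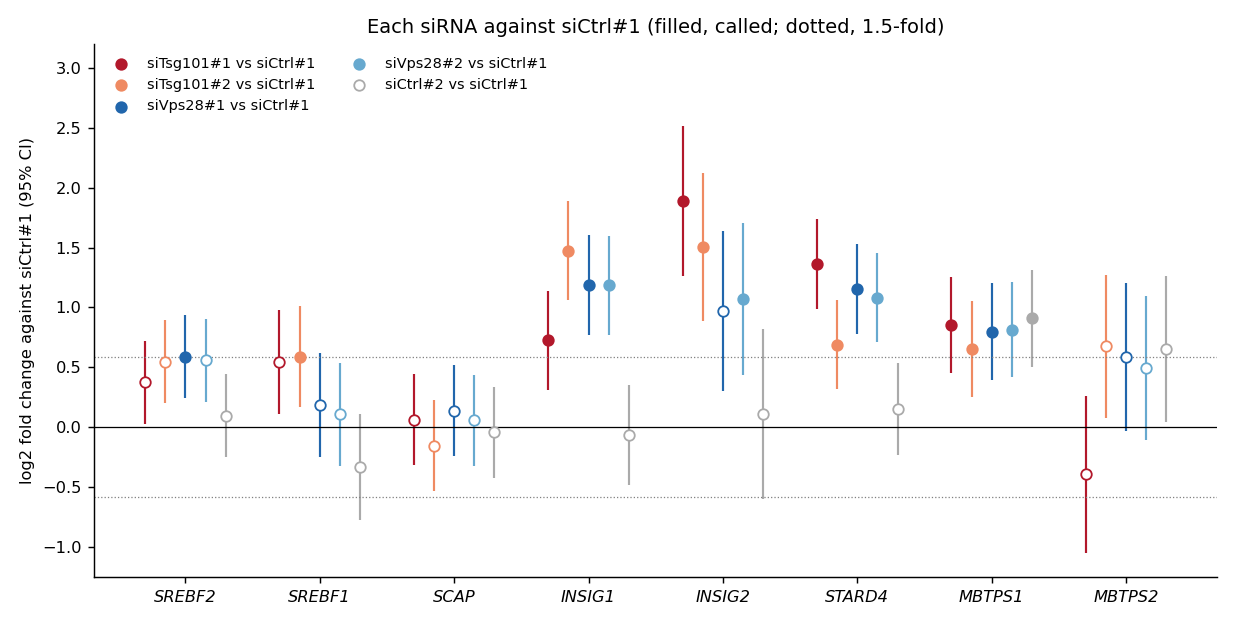
Log2 fold change (vertical axis) of each regulator with each on-target siRNA and with siCtrl#2, all against siCtrl#1; lines are 95% confidence intervals of the edgeR fit, filled points are called and dotted lines mark 1.5-fold. INSIG1, STARD4 and MBTPS1 were called with all 4 on-target siRNAs, and MBTPS1 also with siCtrl#2 (0.91).

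SREBF2, which encodes the SREBP tied to cholesterol synthesis, stood 1.43-fold above siCtrl#1 when the 4 on-target siRNAs were averaged. It read 239, 219 and 208 normalized CPM with siCtrl#1 and 255, 252 and 205 with siCtrl#2. It read 255, 275 and 332 with siTsg101#1 and 322, 337 and 315 with siTsg101#2. It read 379, 314 and 312 with siVps28#1 and 364, 376 and 242 with siVps28#2. Only 1 of the 12 on-target libraries, siVps28#2 replicate 3, lay within the nontargeting range. Another, siTsg101#1 replicate 1 at 255.1, cleared the highest nontargeting library, siCtrl#2 replicate 1 at 255.0, by a margin far smaller than the spread between replicates. The averaged difference (log2 0.52, SE 0.14, adjusted p = 0.00775) was past the p threshold and under the 1.5-fold threshold. Singly, siVps28#1 was called at 0.59 (SE 0.17, adjusted p = 0.0271), siTsg101#2 at 0.55 (adjusted p = 0.0229) and siVps28#2 at 0.56 (adjusted p = 0.0245) passed on p alone, and siTsg101#1 at 0.37 (adjusted p = 0.105) passed on neither. The siVps28#1 call was lost without siCtrl#1 replicate 1, 2 or 3 or siVps28#1 replicate 1, at adjusted p 0.0509, 0.081, 0.0914 and 0.124, against siCtrl#2 (0.49, adjusted p = 0.0973), and against the mean of both nontargeting siRNAs, where 0.54 (adjusted p = 0.0174) was under 1.5-fold. Calls were gained without siCtrl#1 replicate 1 for siTsg101#2 (0.60, adjusted p = 0.0364) and siVps28#2 (0.61, adjusted p = 0.0419), and for siVps28#2 without its replicate 3 (0.73, adjusted p = 0.00363).

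SREBF1, which encodes the SREBP tied to fatty acid synthesis, read higher in both siTsg101 libraries than in both siVps28 libraries of each batch. It read 31.1, 44.9 and 37.2 normalized CPM with siCtrl#1 and 27.2, 35.6 and 26.9 with siCtrl#2. It read 42.0, 62.8 and 58.5 with siTsg101#1 and 57.9, 63.8 and 48.0 with siTsg101#2. It read 37.0, 57.8 and 33.5 with siVps28#1 and 36.3, 43.7 and 41.4 with siVps28#2. Replicate 2 was the highest of its group in 6 of 6 groups, and 6 of the 12 on-target libraries lay above all nontargeting ones. The siTsg101#2 difference from siCtrl#1 was called at 0.59 (SE 0.21, adjusted p = 0.0439), at the edge of both thresholds, and siTsg101#1 was 0.55 (SE 0.21, adjusted p = 0.0564). The siVps28#1 and siVps28#2 values were 0.19 (95% CI -0.25 to 0.62) and 0.11 (95% CI -0.32 to 0.54). The siTsg101#2 call was lost without siCtrl#1 replicate 1 or 3 or siTsg101#2 replicate 1 or 2, at adjusted p 0.177, 0.105, 0.105 and 0.142, and under DESeq2 and RLE size factors its value of 0.58 fell under 1.5-fold. The siTsg101#1 value was called without siCtrl#1 replicate 2 (0.68, adjusted p = 0.0414) or siTsg101#1 replicate 1 (0.69, adjusted p = 0.0299). SREBF1 was -0.33 with siCtrl#2 (SE 0.21, adjusted p = 0.512), and against siCtrl#2 the 2 siTsg101 values were 0.88 (adjusted p = 0.00471) and 0.92 (adjusted p = 0.0033), both called.

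SCAP, the escort protein, was not called in any comparison. Its group means ran from 186 ± 26.2 normalized CPM with siTsg101#2 to 228 ± 18.1 with siVps28#1 (SD, n = 3), with siCtrl#1 at 208 ± 20.0, and each group overlapped its neighbour in the order of levels. The siCtrl#2 libraries spanned the widest range, 157 to 282. The mean over the 4 on-target siRNAs differed from siCtrl#1 by 0.03 on the log2 scale, with a 95% confidence interval of -0.27 to 0.33.

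MBTPS1, the site-1 protease, was low in siCtrl#1 and not in siCtrl#2. It read 29.5, 18.8 and 33.2 normalized CPM with siCtrl#1 and 40.6, 56.6 and 57.5 with siCtrl#2. It read 43.7, 48.8 and 55.7 with siTsg101#1 and 47.4, 45.7 and 36.9 with siTsg101#2. It read 53.7, 44.0 and 45.9 with siVps28#1 and 45.7, 52.6 and 46.9 with siVps28#2. All 15 libraries of the other groups lay above all 3 of siCtrl#1, and none of the 12 on-target libraries lay above the siCtrl#2 range. Against siCtrl#1 the 4 on-target siRNAs were called at 0.85, 0.66, 0.80 and 0.82 (SE 0.19 to 0.20, adjusted p = 0.00246, 0.0186, 0.011 and 0.00517), and siCtrl#2 itself was called at 0.91 (SE 0.19, adjusted p = 0.0124). Against siCtrl#2 the same siRNAs gave -0.06, -0.25, -0.11 and -0.09 (adjusted p = 0.884, 0.383, 0.828 and 0.826), so that the direction of MBTPS1 depended on which nontargeting siRNA was the reference. The siTsg101#2 call was lost without siCtrl#1 replicate 2 or siTsg101#2 replicate 1 or 2 (adjusted p = 0.11, 0.0743 and 0.0537), and the siVps28#1 call without siCtrl#1 replicate 2 or siVps28#1 replicate 1 (adjusted p = 0.0703 and 0.057). The siCtrl#2 call was lost without siCtrl#1 replicate 2 or siCtrl#2 replicate 2 or 3 (adjusted p = 0.0819, 0.0537 and 0.085), and with only both groups in the fit (adjusted p = 0.073).

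MBTPS2, the site-2 protease, was called with no siRNA against siCtrl#1. It read 13.6, 11.1 and 12.5 normalized CPM with siCtrl#1 and 14.5, 27.7 and 16.7 with siCtrl#2. It read 8.98, 11.3 and 8.37 with siTsg101#1 and 17.3, 27.5 and 14.9 with siTsg101#2. It read 18.5, 21.7 and 15.9 with siVps28#1 and 14.4, 26.1 and 12.0 with siVps28#2. Replicate 2 was the highest in 5 of 6 groups, siCtrl#1 being the exception. Log2 fold changes against siCtrl#1 were -0.39 with siTsg101#1 (adjusted p = 0.393), 0.68 with siTsg101#2 (adjusted p = 0.0993), 0.59 with siVps28#1 (adjusted p = 0.248), 0.49 with siVps28#2 (adjusted p = 0.285) and 0.65 with siCtrl#2 (adjusted p = 0.301). With the batch as a replicate block, the siTsg101#2 value was 0.60 with an adjusted p of 0.0437 and was called, as it was with no low-count filter (adjusted p = 0.0334) or with only both groups in the fit (adjusted p = 0.0452). Against siCtrl#2, siTsg101#1 was called lower at -1.04 (SE 0.31, adjusted p = 0.0187) and siTsg101#2 was 0.03.

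Counted by siRNA, 4 of the 8 regulators were called higher with siTsg101#1, where 11.6% of all genes tested were, and 5 with siTsg101#2, where 10.1% were. There were 4 with siVps28#1 against 4.85% of all genes, and 4 with siVps28#2 against 7.09%. With siCtrl#2 the count was 1, MBTPS1, against 1.4%. INSIG1, STARD4 and MBTPS1 were called higher with all 4 on-target siRNAs, as were 2.55% of all genes. No regulator was lower at an unadjusted p under 0.05 with any of these 5 siRNAs, and DESeq2 called none lower. With the replicate block INSIG2 joined the genes called with all 4. With siCtrl#2 as the reference, only INSIG1 was called with all 4, INSIG2 and STARD4 each missing with 1 siRNA.

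Within batches, where each on-target library was set against the siCtrl#1 library of its own batch, INSIG1, INSIG2, STARD4, SREBF2 and MBTPS1 were higher in 12 of 12 differences. The median log2 differences were 1.28, 1.38, 1.11, 0.59 and 0.71 in that order. The lowest were 0.09, 0.70, 0.56, 0.09 and 0.15. For INSIG1 and SREBF2 the lowest lay within the siCtrl#2 differences from siCtrl#1, -0.55 to 0.55 and -0.02 to 0.20. All differences of a batch share its siCtrl#1 library, so a low value there raises all of them. How many of all genes tested were higher in every difference was not counted. SREBF1 was higher in 10 of 12, MBTPS2 in 9 and SCAP in 7. The siCtrl#2 libraries were higher than siCtrl#1 in 3 of 3 batches for MBTPS1 and MBTPS2, in 2 of 3 for INSIG2, STARD4 and SREBF2, in 1 of 3 for INSIG1 and SCAP, and in 0 of 3 for SREBF1.

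**Figure D3:**
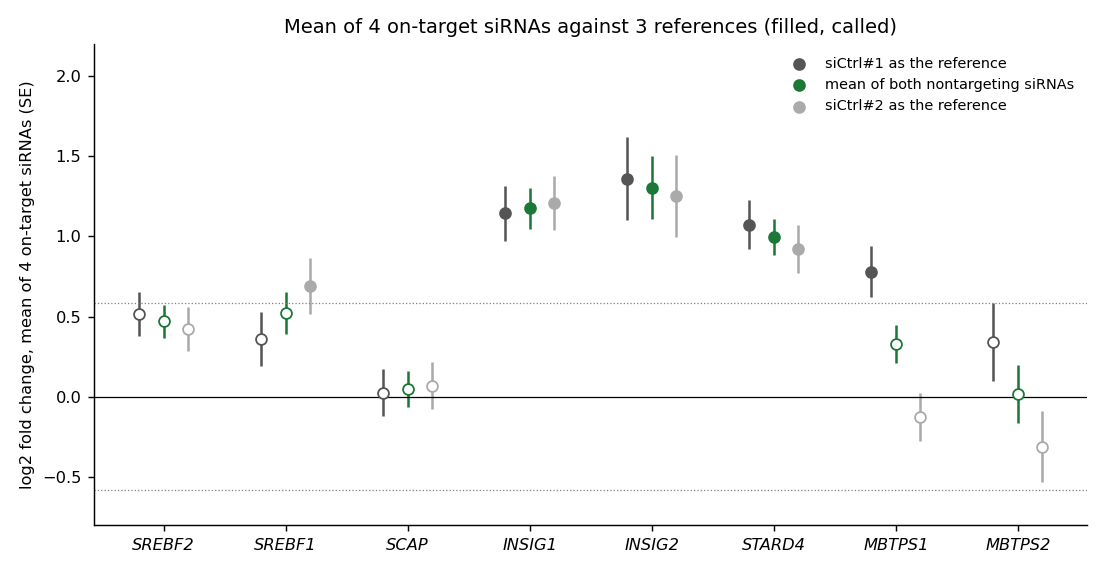
Log2 fold change of the mean of 4 on-target siRNAs (vertical axis) against siCtrl#1, the mean of both nontargeting siRNAs, or siCtrl#2; lines are 1 SE, filled points are called and dotted lines mark 1.5-fold. INSIG1, INSIG2 and STARD4 were called with each reference, MBTPS1 went from 0.78 to -0.13, and SREBF1 from 0.36 to 0.69.

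The reference mattered for the averaged effect of 3 regulators. INSIG1 was 1.14, 1.18 and 1.21 against siCtrl#1, both nontargeting siRNAs and siCtrl#2, INSIG2 was 1.36, 1.30 and 1.25, and STARD4 was 1.07, 1.00 and 0.92, each called with each reference. SREBF2 was 0.52, 0.47 and 0.42, past the p threshold each time (adjusted p = 0.00775, 0.00151 and 0.035) and under 1.5-fold each time. MBTPS1 was 0.78, 0.33 and -0.13, and only the first was called. SREBF1 was 0.36, 0.52 and 0.69 (adjusted p = 0.13, 0.00413 and 0.0081), and only the last was called. MBTPS2 was 0.34, 0.01 and -0.31, and SCAP was 0.03, 0.05 and 0.07, with no call.

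Tsg101 and Vps28 depletion were compared directly, by averaging the siRNAs to each target, which uses no nontargeting library. INSIG2 was 1.60-fold higher with Tsg101 depletion (log2 0.68, SE 0.19, 95% CI 0.28 to 1.08, adjusted p = 0.0221), and both siTsg101 libraries lay above both siVps28 libraries in 3 of 3 batches. This order comes from the same values as the test and adds nothing to the call. How many of all genes tested showed it was not counted. INSIG2 was the 1 regulator called, where 6.2% of all genes tested were called in either direction. The call was lost without siTsg101#1 replicate 1, the shallowest library (0.58, adjusted p = 0.0654), without siVps28#1 replicate 2 or 3 (0.63 and 0.65, adjusted p = 0.0604 and 0.0531), and without siVps28#2 replicate 2 (0.62, adjusted p = 0.0583). SREBF1 was 0.42 higher with Tsg101 depletion (SE 0.14, adjusted p = 0.0606), again in 3 of 3 batches, and 0.43 with an adjusted p of 0.0125 under the replicate block, which is under 1.5-fold. The other 6 regulators lay between -0.40 for MBTPS2 (95% CI -0.83 to 0.03) and -0.05 for MBTPS1 (95% CI -0.33 to 0.22).

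**Figure D4:**
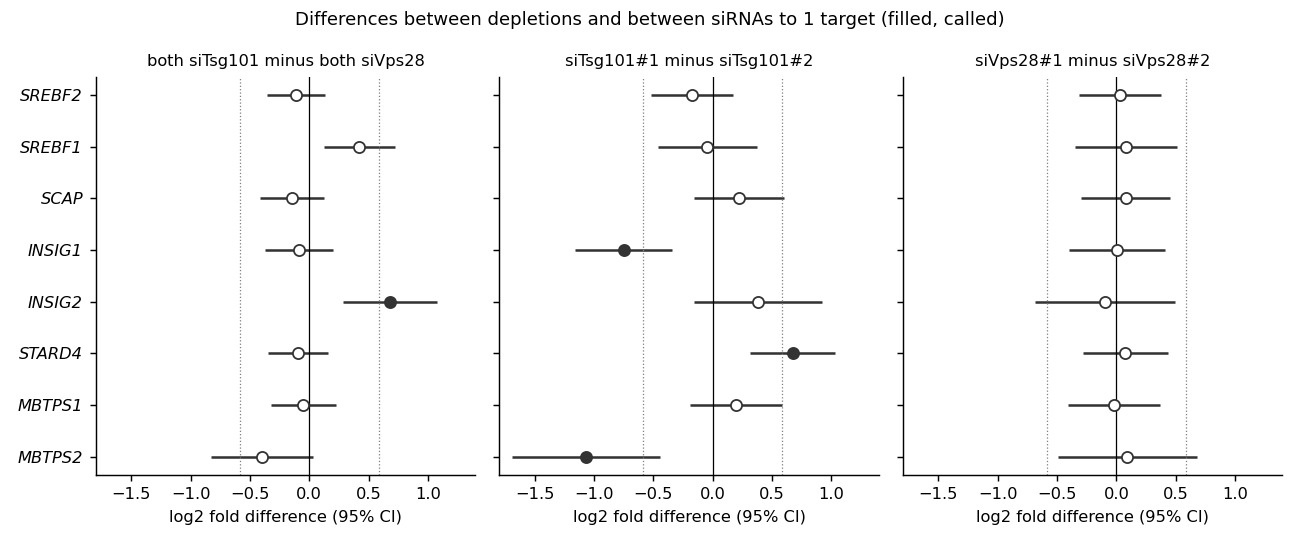
Log2 fold differences (horizontal axes) of the regulators between Tsg101 and Vps28 depletion and between the siRNAs to each target; lines are 95% confidence intervals, filled points are called and dotted lines mark 1.5-fold. INSIG2 was called between depletions (0.68), INSIG1, STARD4 and MBTPS2 between the siTsg101 siRNAs, and no regulator between the siVps28 siRNAs.

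The siRNAs to Tsg101 differed from each other for 3 regulators, where 6.94% of all genes were called in either direction. INSIG1 was 1.68-fold lower with siTsg101#1 than with siTsg101#2 (log2 -0.75, SE 0.20, adjusted p = 0.0195), MBTPS2 was 2.10-fold lower (log2 -1.07, SE 0.30, adjusted p = 0.0284), and STARD4 was 1.60-fold higher (log2 0.67, SE 0.17, adjusted p = 0.0167). The libraries of both siRNAs did not overlap for any of the 3. These genes were picked by the same values, so this adds nothing to the calls. The INSIG1 call was lost without replicate 2 of siTsg101#1 or of siTsg101#2 (adjusted p = 0.0826 and 0.123). The MBTPS2 call was lost without siTsg101#1 replicate 1 or 3 or siTsg101#2 replicate 2 (adjusted p = 0.0871, 0.141 and 0.183). The STARD4 call was lost without siTsg101#1 replicate 2 or 3 or siTsg101#2 replicate 1 or 3 (adjusted p = 0.0617, 0.0845, 0.0802 and 0.0549). Between the siRNAs to Vps28, 0 of 8 regulators were called, against 0.488% of all genes, 0 had an unadjusted p under 0.05 and DESeq2 called 0; the widest 95% interval was that of INSIG2, -0.69 to 0.49.

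In the order of group levels, siCtrl#1 and siCtrl#2 were the lowest pair for SREBF1, SREBF2, INSIG1, INSIG2 and STARD4. That pair did not overlap the next group, siTsg101#1 for SREBF2 and INSIG1, siVps28#1 for INSIG2 and siTsg101#2 for STARD4, while for SREBF1 each group overlapped its neighbour. For SREBF2 the gap was only from 255.0 to 255.1 normalized CPM, and siVps28#2, further up the order, reached down to 242, within the nontargeting range. For INSIG2 the order went on through siVps28#1 and siVps28#2, which overlapped, to siTsg101#2 and then siTsg101#1, each apart from the one before. The step between the siTsg101 siRNAs was not called by edgeR (log2 0.38, SE 0.26, adjusted p = 0.42). For STARD4, siTsg101#2 stood apart between the nontargeting groups and the other 3. For MBTPS1 only siCtrl#1 stood apart, at the bottom, and siCtrl#2 was the top group. For MBTPS2, siTsg101#1 was lowest and siTsg101#2 highest, with each group overlapping its neighbour. How many of all genes tested had groups apart in these ways was not counted.

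Across the 18 libraries, which share reference groups, batches and the depletion itself, log2 CPM of INSIG1 and SREBF2 had a Pearson r of 0.83, STARD4 and INSIG2 of 0.77, and STARD4 and SREBF2 of 0.70. INSIG1 and INSIG2 had an r of 0.58, and SREBF1 and SREBF2 of 0.43. SCAP ran from -0.48 with MBTPS2 to 0.20 with INSIG1. Among 10121 other named genes, those most like INSIG1 were SRPRA (0.94), SQSTM1 (0.92) and FASN (0.91), where FASN is fatty acid synthase. Those most like INSIG2 were PDK1 (0.95), TTI2 (0.93) and NSDHL (0.93), where NSDHL is an enzyme of cholesterol synthesis. Those most like STARD4 were TNFRSF9 (0.93), ENTPD7 (0.92) and NFKBIZ (0.92). Those most like SREBF2 were RNASEK (0.89), GCLM (0.86) and LDAF1 (0.86), and those most like SREBF1 were FECH (0.89), JMY (0.87) and MID2 (0.87). The first gene for SCAP was PSMB5 (0.88), for MBTPS1 PIP4K2A (0.88) and for MBTPS2 TMBIM6 (0.83).

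For the lists of related genes, the shares of all genes tested that were called with the mean of 4 on-target siRNAs were 8.4% higher and 6.57% lower, and counts of a few genes in lists this small stand against those shares. Of 17 tested genes listed for SREBP degradation and ER retention, 3 rose and 0 fell with the mean of 4 on-target siRNAs. They were FAF2 (1.02), a cofactor of ER-associated degradation, PAQR3 (0.68), a Golgi anchor of SCAP, and HSP90AA1 (0.66), a chaperone. The name of the list does not describe PAQR3 or HSP90AA1. The median log2 fold change of the 17 was 0.13, and 0 of them were lower at an unadjusted p under 0.05 or by DESeq2. PAQR3 and FAF2 were also called higher with Tsg101 than with Vps28 depletion, by 1.06 and 1.90, FAF2 from as few as 8 counts per siCtrl#1 library. Both were called with each siTsg101 siRNA and with neither siVps28 siRNA. With siVps28#1 and siVps28#2, PAQR3 was 0.35 and -0.04 and FAF2 was -0.28 and 0.43. FAF2 was lost without siCtrl#1 replicate 1 (adjusted p = 0.0859), PAQR3 without siCtrl#1 replicate 2 (adjusted p = 0.0626), and HSP90AA1 without siCtrl#1 replicate 2 or 3 or siVps28#1 replicate 1 (0.48, 0.56 and 0.58). Against siCtrl#2, HSP90AA1 was 0.08.

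Of 11 COPII coat genes, which build the vesicles that carry SCAP, 1 rose, SEC24A (0.86), and 0 fell, with a median of -0.05, a share close to that of all genes. SEC23A, named after its values were seen, was called lower with siTsg101#1 (-0.89, adjusted p = 2.97e-05) and with Tsg101 against Vps28 depletion (-0.65, adjusted p = 3.1e-05), while it was -0.07 with siTsg101#2. Of 7 other substrates of the Golgi proteases, 1 rose, CREB3 (0.87), and 0 fell. In the COPII list 2 genes and among the other substrates 1 gene were lower at an unadjusted p under 0.05, and DESeq2 called 0 lower in either. Both named genes lost the call against siCtrl#2, at 0.48 (adjusted p = 0.055) for SEC24A and 0.47 (adjusted p = 0.119) for CREB3. None of 10 partner and upstream factors was called by edgeR with the mean of 4 or by DESeq2, and 1 was lower and 0 higher at an unadjusted p under 0.05. NFYB, also named after its values were seen, was called higher by edgeR with siTsg101#2 (0.80, adjusted p = 0.0346). It was also called with Tsg101 against Vps28 depletion (0.65, adjusted p = 0.0266), but not with siTsg101#1 (0.64, adjusted p = 0.092). In the START family and ER sterol transfer list, 12 genes were tested, of which STARD3NL (0.90), STARD10 (0.88) and the oxysterol-binding protein OSBP (0.83) rose and STARD9 (-0.66) fell. STARD10 and STARD3NL were called with all 4 on-target siRNAs, but against siCtrl#2 both calls with the mean of 4 were lost, at 0.04 for STARD3NL and 0.57 for STARD10. OSBP was 0.92 higher with Tsg101 than with Vps28 depletion. It was called with siTsg101#1 and siTsg101#2 (1.25 and 1.33) and with neither siVps28#1 (0.16) nor siVps28#2 (0.58, under 1.5-fold). The STARD9 call was lost with 12 of the 18 libraries left out in turn, at values from -0.80 to -0.47.

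**Figure D5:**
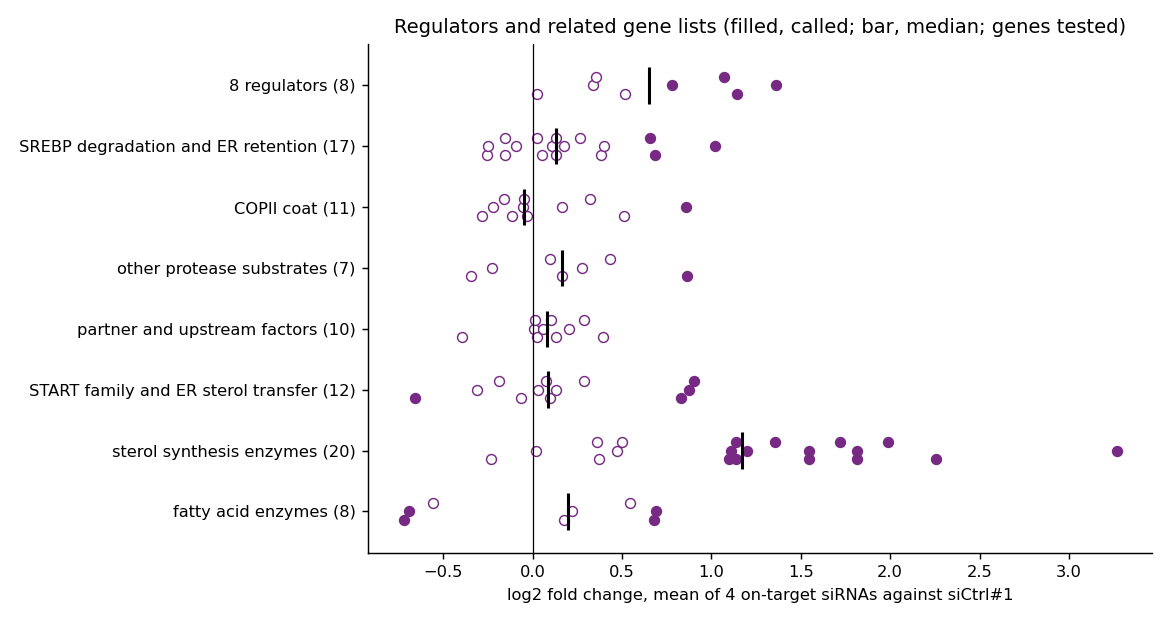
Log2 fold change (horizontal axis) of each tested gene with the mean of 4 on-target siRNAs against siCtrl#1, for the 8 regulators and 7 related lists with the number of genes in brackets; filled points are called and bars are medians. Sterol synthesis enzymes had 14 of 20 genes called higher, and the remaining lists had 0 to 3 called higher.

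Beside the regulators stand the enzymes that SREBPs control. Of 20 sterol synthesis enzymes tested, 14 rose with the mean of 4 and 0 fell, by edgeR and by DESeq2. At an unadjusted p under 0.05, 17 were higher and 0 lower. The 14 enzymes called by edgeR were called with each of the 4 on-target siRNAs. The median of the list was 1.17 against -0.01 for all genes. HMGCS1, which makes HMG-CoA, was highest at 3.27 (SE 0.16), followed by MSMO1 (2.26), DHCR7 (1.99), IDI1 (1.82), NSDHL (1.81) and SQLE (1.72). All 6 were also called against siCtrl#2, where HMGCS1 was 2.50 and SQLE 1.11, and HMGCS1 was itself called higher with siCtrl#2 than with siCtrl#1 (0.77, adjusted p = 0.0176). NSDHL was the 1 enzyme called between depletions, 0.84 higher with Tsg101 depletion. Of 8 fatty acid enzymes, FASN (0.69) and ACACA (0.68) rose while FADS2 (-0.72) and GPAM (-0.69) fell, against the 8.4% and 6.57% of all genes, and none was called with all 4. ACACA was 0.26 against siCtrl#2 and lost the call without siCtrl#1 replicate 3 (adjusted p = 0.0594), as did FASN (0.56) and GPAM (adjusted p = 0.0761). GPAM was also lost without siCtrl#1 replicate 1 (-0.38) and FADS2 without siCtrl#1 replicate 2 (-0.58).

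On GRCh37, the build of the deposited counts, SREBF1 (NM_001005291) lies at chr17:17713713-17740316 (minus strand), SREBF2 (NM_004599) at chr22:42229109-42303310 (plus) and SCAP (NM_012235) at chr3:47455171-47518616 (minus). INSIG1 (NM_005542) lies at chr7:155089486-155101945 (plus), INSIG2 (NM_016133) at chr2:118846028-118868573 (plus) and STARD4 (NM_139164) at chr5:110831731-110848288 (minus). MBTPS1 (NM_003791) lies at chr16:84087366-84150547 (minus) and MBTPS2 (NM_015884) at chrX:21857735-21903541 (plus). Other genes on the opposite strand cover 556 of 8234 exon bases of SREBF1 (RAI1), 731 of 8053 of SREBF2 (SREBF2-AS1), 124 of 5684 of STARD4 (STARD4-AS1) and 72 of 6288 of SCAP. In MBTPS2, 1195 of 8945 exon bases are also exon of genes on the same strand, mainly YY2, and 12.8% of its 50-base transcript stretches occur in transcripts of other genes. INSIG1 and INSIG2 share no 50-base stretch with each other or with any other gene, and no exon base with another gene. The position of each amplicon and the strand setting of the counting were not given in the sources used here, so whether reads of an overlapping gene entered a count was not tested. Levels are not compared between genes, because each was read by its own amplicon.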

How the data were processed

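RNA of RKO cells was read with an Ion AmpliSeq human transcriptome panel, and the authors deposited raw read counts per gene, made with HTSeq 0.6.0 on hg19 per the labels; the submitters' notes also name DESeq2 1.18.1. Groups, batches, dose and time were taken from the labels. Between 48.23 and 49.07% of reads had no feature and were left out, as were 386 noncoding genes, and genes needed over 100 counts over all 18 libraries, leaving 10246. Of 20802 panel genes, 20228 were paired with a symbol through RefSeq tables.

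Counts were fitted with edgeR 4.0.16 in R 4.3.3 (TMM normalization, quasi-likelihood test, all 6 groups in 1 fit, Benjamini-Hochberg over all genes tested). Calls needed 1.5-fold and an adjusted p under 0.05. Normalized CPM is TMM-scaled, and log2 CPM used a prior count of 2. Precision is set by these counts, and panel reads carry no molecular identifiers. Every regulator and the TSG101 and VPS28 check are named, and in each list up to 6 genes called with the mean of 4 siRNAs, largest change first. The regulators and lists were chosen with earlier results of these data known.

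The labels give the replicate number as a batch, so it pairs the libraries: over 45 same-batch pairs, deviations from group means had a mean correlation of 0.15 (-0.15 to 0.39). The fit was tested on simulated counts with the same spread for all genes, no batch effect and the same change in all on-target groups. That simulation cannot speak to batches or to differences between siRNAs. Alternatives were DESeq2 1.42.0, RLE factors, 2 other count filters, noncoding genes included, 2 other references, the replicate block, no minimum fold, only the groups compared, and each library left out. Gene positions came from GENCODE lifted to GRCh37, and promoter sequence from RefSeq on GRCh38.p14, which was not mixed with GRCh37 positions.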

Additional observations from a re-analysis of the deposited data

Results flagged for a closer look

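INSIG2 was marked for a closer look because the effects of both depletions on it differed in a direct test: it was 0.68 higher on the log2 scale with Tsg101 than with Vps28 depletion (edgeR, SE 0.19, adjusted p = 0.0221). All 6 siTsg101 libraries lay above all 6 siVps28 libraries, at 26 to 89 counts per library, which restates the values tested and adds nothing to the call. The part of depth in this difference was not tested; siTsg101#1 replicate 1, whose INSIG2 level was highest, was the shallowest library, and without it the value was 0.58 with an adjusted p of 0.0654.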

How the results depend on the processing

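Of 1322 comparisons of a regulator's log2 fold change with its value under an alternative, 1246 kept their direction and side of the threshold. Many of these left out a library outside the groups compared, which bears on a call mainly through the shared estimate of the spread. With siCtrl#2 as the reference, MBTPS1 reversed to -0.13 for the mean of 4 and to -0.0551, -0.25, -0.11 and -0.0936 for siTsg101#1, siTsg101#2, siVps28#1 and siVps28#2, MBTPS2 reversed to -0.31 for the mean, -0.0658 with siVps28#1 and -0.16 with siVps28#2, and SREBF1 was called at 0.69. With that reference, 3 regulators were called with siTsg101#2, 2 with siVps28#1 and 1 with all 4. The related lists then had 0 higher for the COPII coat and other protease substrates, 1 higher and 0 lower for START genes, and 1 higher and 1 lower for fatty acid enzymes. With both nontargeting siRNAs as the reference, MBTPS1 lost its call at 0.33, SREBF2 lost that with siVps28#1 at 0.54, START genes had 0 lower and fatty acid enzymes 1 higher. Requiring an adjusted p alone, SREBF2 was called at 0.52. By that rule 5 genes of the degradation and retention list, 2 COPII and 2 protease substrate genes were called higher. With at least 10 counts in every library, which 8749 genes passed, INSIG2 was not tested and 0 regulators differed between depletions. With only the groups compared in the fit, 0 were called with siCtrl#2. The replicate block gave 0.60 for MBTPS2 with siTsg101#2 and 0.99 for INSIG2 with siVps28#1, both called, and changed no other call of a regulator in these comparisons. The cause of these changes was not tested beyond what each alternative leaves out or replaces.

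With 1 library left out, the counts of regulators called were 3 to 5 with siTsg101#2, 2 to 5 with siVps28#1, 0 to 1 with siCtrl#2, 2 to 4 with all 4, 0 to 1 between depletions and 1 to 3 between the siTsg101 siRNAs. List counts ran 1 to 3 higher for the degradation and retention list and 0 to 1 lower for START genes. Those of fatty acid enzymes ran 1 to 3 higher and 1 to 2 lower. Log2 values that changed sign were those of SCAP, from -0.0319 (without siCtrl#1 replicate 1) to 0.10 for the mean of 4 and from -0.0052 (without siTsg101#1 replicate 1) to 0.16 with siTsg101#1, and of SREBF1, from -0.0955 (without siVps28#1 replicate 2) to 0.34 with siVps28#1 and from -0.0137 (without siCtrl#1 replicate 1) to 0.24 with siVps28#2; none of these was called. INSIG2 was read at 7 to 89 counts per library, which limits its precision.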
